A study of Mus musculus with 8 samples.

Results

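The genes described here are the 5 subunits of NF-kB (Nfkb1, Nfkb2, Rel, Rela and Relb), 4 genes that restrain or modulate it (Nfkbia, Nfkbie, Nfkbiz and Tnfaip3) and the kinase gene Ikbke. They were chosen by name: every non-control probe carrying one of these 10 symbols on the array was taken, which gave 20 probes of 56599, and all 10 genes were among the 22509 genes tested. Expression was measured on 8 one-colour Agilent arrays, 4 of the LPS group and 4 of the saline group. LPS, lipopolysaccharide, is an outer membrane component of Gram-negative bacteria. All mice were male C57BL/6N animals of 7 days, and the groups differed in what they were given, LPS or saline, with 24 h as the labelled time. The brains of 2 mice treated alike were dissociated together in each tube, CD11b(+) cells were taken out with magnetic beads, and each tube gave 1 RNA sample, so an array reports a pool of 2 animals.

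NF-kB is a family of dimeric transcription factors that sit in the cytoplasm bound to IkB proteins. Signals such as LPS at its receptor Tlr4 activate the IkB kinases (IKK), IkB is phosphorylated and degraded, and the dimers enter the nucleus and switch on cytokine, chemokine and survival genes. Several of those targets encode the pathway's own brakes, among them Nfkbia and Tnfaip3, and further subunits, among them Nfkb2 and Relb, so the family is in part regulated by its own activity. In microglia, the resident macrophages of the brain, and in other CD11b(+) myeloid cells this system drives much of the early response to bacterial products.

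The promoters of these genes were read for the letters that NF-kB binds. A window of 250 bases before and 50 after the start site was found in the RefSeq table (build GRCm38.p6) for 7 of the 10 genes, and Nfkb1, Relb and Nfkbiz had none there. The 7 genes had 10 windows, 2 of which, both of Nfkb2, overlap. The NF-kB consensus motif of 10 bases, searched on both strands, was in 7 of the 10 windows and in 5 of the 7 genes. It was in 8.46% of all 32851 windows and in 9.55% of all 27025 genes in the table. The windows of the family held 47.0% to 75% G and C, against a median of 52.7% over all windows, so base composition differs as well. The sequences below are shown because they set 2 risen genes (Nfkb2 and Nfkbie), 1 fallen gene (Rel) and 2 genes that did not pass the test (Nfkbia and Tnfaip3) beside Ikbke, which rose most; capitals mark the motif, and each is written 5′ to 3′ on the gene's strand.
Nfkb2, chr19:46304487-46304786, plus strand: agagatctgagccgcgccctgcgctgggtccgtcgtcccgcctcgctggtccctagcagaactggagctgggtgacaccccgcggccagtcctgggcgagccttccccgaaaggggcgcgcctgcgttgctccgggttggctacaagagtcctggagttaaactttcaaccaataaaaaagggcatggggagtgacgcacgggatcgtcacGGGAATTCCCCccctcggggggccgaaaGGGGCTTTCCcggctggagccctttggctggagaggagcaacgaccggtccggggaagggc
Nfkbie, chr17:45555450-45555749, plus strand: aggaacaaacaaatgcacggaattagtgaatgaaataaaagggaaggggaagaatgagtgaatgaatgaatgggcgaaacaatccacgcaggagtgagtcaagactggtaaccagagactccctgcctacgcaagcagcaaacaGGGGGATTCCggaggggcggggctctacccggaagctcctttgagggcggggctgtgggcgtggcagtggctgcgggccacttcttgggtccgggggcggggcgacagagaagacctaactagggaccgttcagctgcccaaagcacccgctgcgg
Rel, chr11:23770920-23771219, minus strand: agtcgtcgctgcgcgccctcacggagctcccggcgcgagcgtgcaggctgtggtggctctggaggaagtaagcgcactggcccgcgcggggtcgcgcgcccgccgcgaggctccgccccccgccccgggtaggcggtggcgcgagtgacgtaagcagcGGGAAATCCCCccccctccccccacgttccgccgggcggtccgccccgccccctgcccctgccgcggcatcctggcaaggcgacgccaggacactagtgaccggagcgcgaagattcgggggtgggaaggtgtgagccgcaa
Nfkbia, chr12:55492598-55492897, minus strand: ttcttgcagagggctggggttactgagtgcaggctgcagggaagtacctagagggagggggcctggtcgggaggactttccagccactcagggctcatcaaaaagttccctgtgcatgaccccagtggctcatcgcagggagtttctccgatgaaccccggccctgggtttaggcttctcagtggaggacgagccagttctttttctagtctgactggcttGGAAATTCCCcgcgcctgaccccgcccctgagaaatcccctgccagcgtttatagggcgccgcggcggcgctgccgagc
Tnfaip3, chr10:19015361-19015660, minus strand: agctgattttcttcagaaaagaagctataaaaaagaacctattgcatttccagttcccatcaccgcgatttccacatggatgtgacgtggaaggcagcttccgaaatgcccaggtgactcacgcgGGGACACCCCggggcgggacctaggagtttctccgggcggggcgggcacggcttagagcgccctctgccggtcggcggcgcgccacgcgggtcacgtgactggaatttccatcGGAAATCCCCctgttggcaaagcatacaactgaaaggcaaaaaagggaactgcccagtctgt
Ikbke, chr1:131279514-131279813, minus strand: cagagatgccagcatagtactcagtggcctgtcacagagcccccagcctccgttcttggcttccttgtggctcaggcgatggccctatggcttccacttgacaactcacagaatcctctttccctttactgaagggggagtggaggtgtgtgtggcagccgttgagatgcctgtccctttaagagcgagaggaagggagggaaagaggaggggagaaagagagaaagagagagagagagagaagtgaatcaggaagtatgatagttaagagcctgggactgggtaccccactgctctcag

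In the Nfkb2 window 2 overlapping matches began at positions -39 and -38 relative to the start site and another at -11. The single match of Nfkbie began at -106 and that of Nfkbia at -29. Rel had 2 overlapping matches at -92 and -91, and Tnfaip3 had matches at -125 and -12. Nfkb2 had 2 further windows, each with the motif, and the other Tnfaip3 window had none. The Rela and Ikbke windows held no match. The letters GAAANN followed by GAAA, of the kind bound by interferon regulatory factors and searched on both strands, were in 0 of the 10 windows and in 3.44% of all windows. A match shows only that the letters are present in the window.

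Across the 10 genes, 4 were higher in LPS (Ikbke, Nfkb2, Relb and Nfkbie) and 2 were lower (Rel and Nfkbiz), while Nfkb1, Rela, Nfkbia and Tnfaip3 did not pass the test. The question was how each gene differed between LPS and saline, tested with limma and Benjamini-Hochberg adjustment over all genes at a threshold of 0.05. By the same test 49.3% of all genes were called, 27.8% higher and 21.5% lower in LPS, so 6 of 10 called is near the share over all genes. The same 6 genes had groups that did not overlap, as did 44.7% of all genes, and 4 of them lay higher in LPS, as did 25.8% of all genes. The median change of the 10 genes was 0.14 on the log2 scale, against 0.02 over all genes, and their median absolute change was 0.35, against 0.36 over all genes. Only Ikbke rose at least 2-fold, as did 3.58% of all genes. With arrays scaled to their medians, the count of fallen genes was 0, and with quantile normalization it was 6, whereas the 4 risen genes were called under each. Of all 22509 genes 2619 and 5598 fell under these scalings, in that order.

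Values are log2 processed signal minus the array's 75th percentile, so 0 stands for a probe as bright as that percentile, and a change is the LPS mean minus the saline mean on that scale, given ± its standard error (n = 4 arrays in each group). Levels of different probes are not comparable with each other. Every one of the 10 genes was well above background on all 8 arrays, and no spot was saturated. Arrays differed in brightness, with median processed signals of 11.7 to 17.3 in LPS and 15.5 to 21.5 in saline, and 58.6% to 63.2% of probes on the LPS arrays and 61.9% to 66.0% on the saline arrays were well above background. All 10 microglia markers were well above background on every array, with 5 of them lower in LPS. Of all genes 27.8% were higher and 21.5% lower in LPS. Markers of other cells were detected too. Of 8 monocyte markers 7 were higher in LPS, and their summed level, in multiples of each array's 75th percentile, was 127 to 206 on the LPS arrays and 46.1 to 59.3 on the saline arrays. In bulk RNA of this kind fewer cells of a type and less RNA per cell cannot be told apart.

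**Figure D1:**
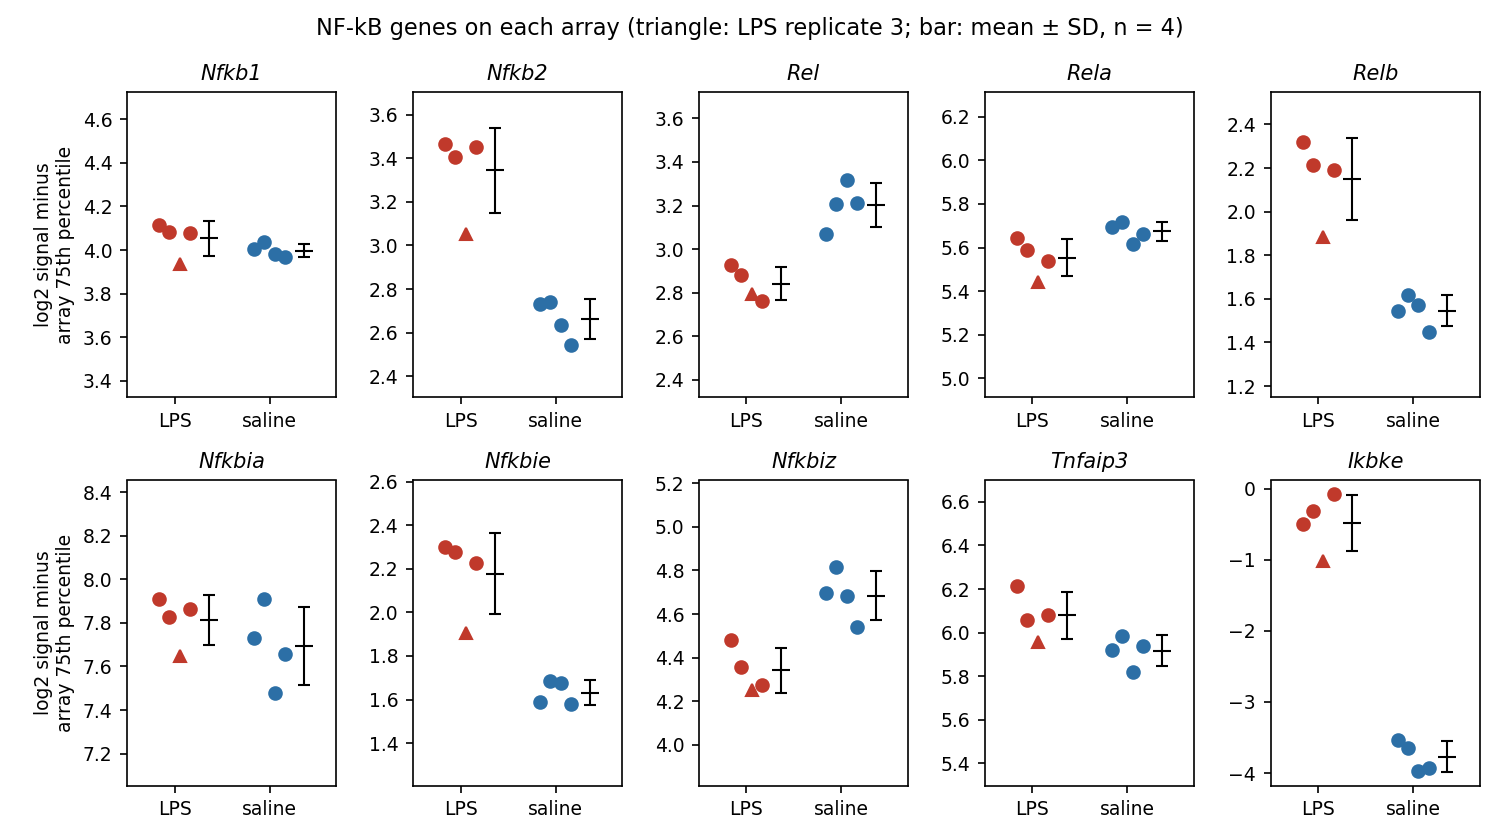
Each panel shows 1 gene, with the log2 processed signal minus the array's 75th percentile on the vertical axis, 4 LPS arrays on the left and 4 saline arrays on the right, and the mean ± SD beside each group. Axes differ between panels. LPS replicate 3, drawn as a triangle, was the lowest LPS array for every gene but Rel, and for Nfkb2, Relb, Nfkbie and Ikbke it still lay above every saline array.

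Rela encodes the subunit that carries the transactivation domain of the classical dimer, and Nfkb1 encodes a precursor that is processed to its DNA-binding partner. Rela was 5.64, 5.59, 5.44 and 5.54 on the LPS arrays, against 5.70, 5.72, 5.62 and 5.66 on the saline arrays. The groups overlapped, since the highest LPS array lay above the lowest saline array. The change was -0.12 ± 0.07 with a 95% interval of -0.28 to 0.04 (limma adjusted p = 0.182). That value depended on the scaling: it was 0.09 under median scaling of the arrays and -0.48 with quantile normalization, past the threshold only in the second (limma adjusted p = 0.000975).

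Nfkb1 was 4.11, 4.08, 3.93 and 4.08 on the LPS arrays, against 4.00, 4.04, 3.98 and 3.97 on the saline arrays. The lowest value of all 8 belonged to an LPS array, and the groups overlapped. The change was 0.06 ± 0.07, with an interval of -0.10 to 0.21 (limma adjusted p = 0.511), and it turned to -0.21 with quantile normalization (limma adjusted p = 0.0163). Nfkb1 stood at rank 20571 of 22509 genes by absolute change.

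Rel encodes a subunit found mostly in blood and immune cells, where it takes part in cytokine gene induction. It was 2.93, 2.88, 2.79 and 2.76 on the LPS arrays, against 3.07, 3.21, 3.31 and 3.21 on the saline arrays. Each LPS array lay below each saline array. Rel fell by 0.36 ± 0.08 on the log2 scale, to 0.779 of the saline level (limma adjusted p = 0.00691). Under median scaling of the arrays the change was -0.15 and not past the threshold (limma adjusted p = 0.416). That scaling moves the median of all genes to 0.24. Relative to the median of all genes Rel was at -0.38 under either scaling. Each scaling subtracts a single value per array, so this agreement is fixed by arithmetic and is no further support.

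Nfkb2 and Relb form the dimer of the alternative pathway, in which the Nfkb2 precursor is processed after Map3k14 (NIK) signalling. Nfkb2 was 3.47, 3.41, 3.05 and 3.45 on the LPS arrays, against 2.73, 2.74, 2.64 and 2.54 on the saline arrays. LPS replicate 3 stood apart from the other LPS arrays but above all saline arrays. Nfkb2 rose by 0.68 ± 0.11, a fold of 1.60 (limma adjusted p = 0.00198). Without LPS replicate 3 the change was 0.78.

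Relb was 2.32, 2.21, 1.88 and 2.19 on the LPS arrays, against 1.55, 1.62, 1.57 and 1.45 on the saline arrays. The groups did not overlap, and Relb rose by 0.61 ± 0.10, a fold of 1.52 (limma adjusted p = 0.00251). Across the 5 subunits, then, Nfkb2 and Relb were higher, Rel was lower, and Rela and Nfkb1 did not pass the test. Whether the change of Nfkb2 or Relb differed from that of Rela or Nfkb1 was not tested.

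Among the inhibitors, Nfkbia encodes IkB-alpha, the brake that is degraded and resynthesised within each round of activation. It was 7.91, 7.83, 7.65 and 7.86 on the LPS arrays, against 7.73, 7.91, 7.48 and 7.66 on the saline arrays. The groups overlapped, with saline replicate 2 as high as the highest LPS array. The change was 0.12 ± 0.11, with an interval of -0.13 to 0.36 (limma adjusted p = 0.379). The processed signals, 35790 to 37560 on the LPS arrays and 35810 to 40700 on the saline arrays, were high but not saturated. The change turned to -0.18 with quantile normalization (limma adjusted p = 0.0262).

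Nfkbie encodes IkB-epsilon, an inhibitor of Rela and Rel dimers. It was 2.30, 2.28, 1.91 and 2.23 on the LPS arrays, against 1.59, 1.68, 1.68 and 1.58 on the saline arrays. All LPS arrays were above all saline arrays, with LPS replicate 3 nearest to them. Nfkbie rose by 0.55 ± 0.10, a fold of 1.46 (limma adjusted p = 0.00340), and by 0.64 without LPS replicate 3.

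Nfkbiz encodes IkB-zeta, a nuclear IkB protein that works as a coactivator at a subset of late target genes. It was 4.48, 4.36, 4.25 and 4.28 on the LPS arrays, against 4.70, 4.81, 4.68 and 4.54 on the saline arrays. The groups did not overlap, although LPS replicate 1 came close to saline replicate 4. Nfkbiz fell by 0.34 ± 0.09, to 0.788 of the saline level (limma adjusted p = 0.0127). Under median scaling of the arrays the change was -0.13 and not past the threshold (limma adjusted p = 0.531). Relative to the median of all genes the change was -0.36 under either scaling, an agreement fixed by arithmetic as for Rel.

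Tnfaip3 encodes a ubiquitin-editing enzyme that shuts off signalling from Toll-like and TNF receptors to IKK. It was 6.22, 6.06, 5.96 and 6.08 on the LPS arrays, against 5.92, 5.99, 5.82 and 5.94 on the saline arrays. The groups touched only through LPS replicate 3, which lay below saline replicate 2. The change was 0.16 ± 0.08, with an interval of -0.02 to 0.34 (limma adjusted p = 0.121), and it was -0.20 with quantile normalization (limma adjusted p = 0.0279).

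Ikbke encodes IKK-epsilon, a kinase of the IKK family that with Tbk1 phosphorylates interferon regulatory factors downstream of nucleic acid sensors and Toll-like receptors. Its processed signal was 109, 127, 88.8 and 153 on the LPS arrays, against 14.6, 13.6, 12.9 and 11.8 on the saline arrays. On the log2 scale that was -0.50, -0.32, -1.01 and -0.08 on the LPS arrays, against -3.53, -3.64, -3.97 and -3.93 on the saline arrays. The groups were far apart, and LPS replicate 3 was again the lowest LPS array. Ikbke rose by 3.29 ± 0.20, a fold of 9.78 (limma adjusted p = 9.89e-05), which was rank 41 of 22509 genes by absolute change. As the probe is dim, background treatment mattered: the change was 2.89 with normexp background and no offset and 1.505 with an offset of 50, called in both.

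**Figure D2:**
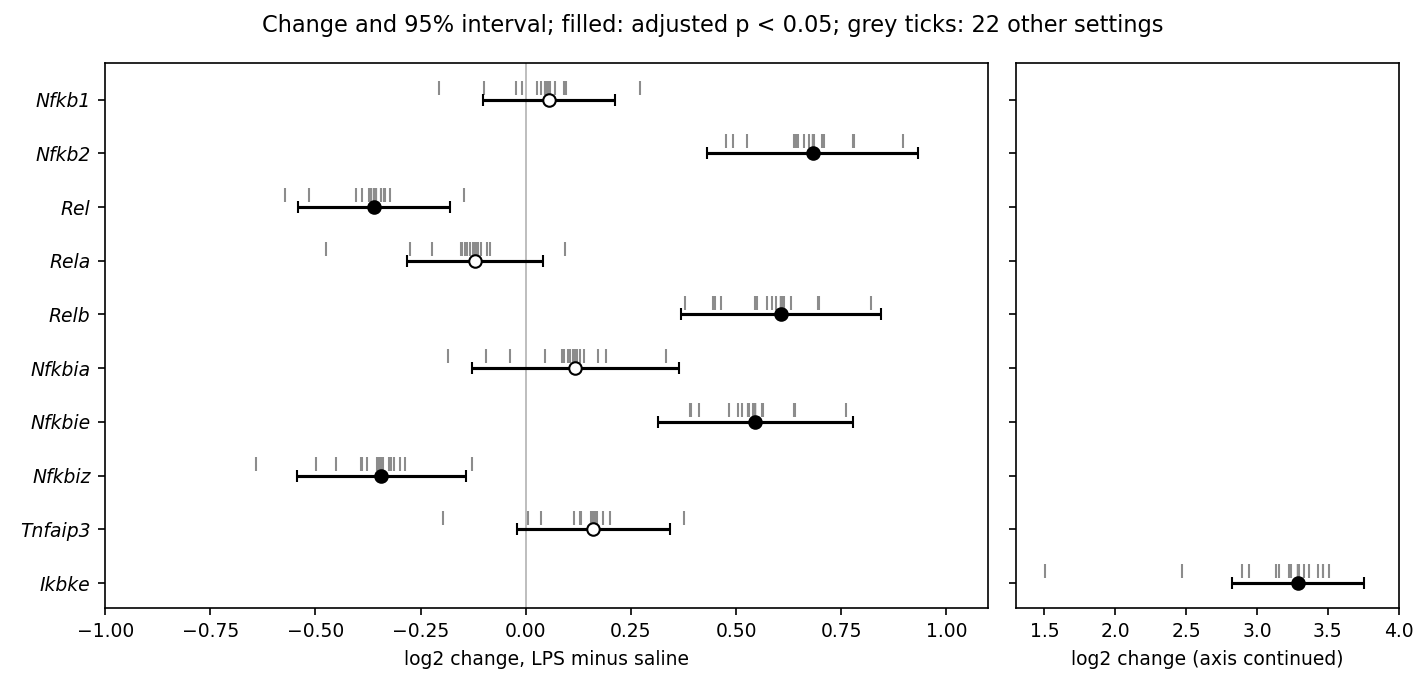
Points give the log2 change, LPS minus saline, of each gene with its 95% interval, filled where the limma adjusted p was under 0.05, and grey ticks give the same change under the other processing settings and with each array left out. The horizontal axis continues in the right panel for Ikbke. Ticks lie on both sides of 0 for Nfkb1, Rela, Nfkbia and Tnfaip3, and on 1 side for the other 6 genes.

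On the scaled values LPS replicate 3 was the lowest LPS array for 9 of the 10 genes. Among them were the 4 risen genes, the fallen Nfkbiz and the 4 that did not pass, and Rel was the exception. The 75th percentile subtracted was 179 on LPS replicate 3, against 154, 158 and 161 on the other LPS arrays. In unscaled signal it was the highest LPS array for Nfkb1, Rela and Rel, and the lowest for Nfkb2, Relb, Nfkbie and Ikbke. For Nfkbia, Nfkbiz and Tnfaip3 it lay between the others. The share of all genes lowest on this array was not counted. Differences of single LPS arrays from the saline mean were 0.80, 0.75, 0.39 and 0.79 for Nfkb2 and 3.27, 3.45, 2.76 and 3.69 for Ikbke, in the order of replicates 1 to 4. For Relb they were 0.78, 0.67, 0.34 and 0.65. For the fallen Rel they were -0.27, -0.32, -0.41 and -0.44, with LPS replicate 4 lowest. The summed level of the monocyte markers on the LPS arrays was 159, 158, 127 and 206, in the same order of replicates, lowest on LPS replicate 3. Their mean log2 level was 2.24, 2.50, 2.26 and 2.83, lowest on LPS replicate 1. Other lists also stood out on LPS replicate 3. Among LPS arrays its summed level was lowest for microglia (1563), but its mean log2 level for them was highest (5.99, against 5.74 to 5.98). Its summed level was highest for border macrophages (473), astrocytes (19.7), the oligodendrocyte lineage (7.15), endothelial cells and pericytes (17.8) and neurons (13.6). For these lists its mean log2 level was highest too. Each of the 8 monocyte markers was well above background on all 8 arrays, none being at 0, and their part in the changes of the risen genes was not tested. Of 9 measured T, B and NK cell markers 5 were higher and 1 lower in LPS, with a summed level of 8.07 to 9.64 on the LPS arrays and 4.43 to 5.98 on the saline arrays. Of 12 neutrophil markers 3 were higher and 1 lower, with a summed level of 261 to 395 on the LPS arrays and 192 to 280 on the saline arrays. Their median change was -0.05, and their mean log2 levels overlapped, 0.97 to 1.92 on the LPS arrays and 0.76 to 1.91 on the saline arrays. Markers of other brain and blood cells were lower in LPS in 3 of 8 genes for border macrophages and 7 of 8 for astrocytes. The counts were 6 of 8 for the oligodendrocyte lineage and 6 of 8 for endothelial cells and pericytes. They were 4 of 4 for erythroid cells and 1 of 7 for neurons. In none of these lists was a marker called higher. Of all genes 27.8% were higher and 21.5% lower, and the neutrophil and neuron counts were not above those shares. The summed level of border macrophage markers was 351 to 473 on the LPS arrays and 511 to 652 on the saline arrays, and that of astrocyte markers 14.7 to 19.7 on the LPS arrays and 25.4 to 32.1 on the saline arrays. The part of these cells in the changes of the 10 genes, the fallen Rel and Nfkbiz included, was not tested.

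All 8 arrays came from 1 slide and 1 scan, and each of its 4 columns held 1 array of each group. Within the 4 columns Nfkb2 differed by 0.42 to 0.91 and Ikbke by 2.95 to 3.85, higher in LPS in every column. Relb (0.31 to 0.78) and Nfkbie (0.23 to 0.71) were also higher in LPS in every column. Rel (-0.52 to -0.14) and Nfkbiz (-0.46 to -0.22) were lower in LPS in every column. Leaving out each array in turn changed none of the 10 calls.

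Most genes were read by several probes. Of the 20 probes 19 were kept, the exception being an Nfkbiz probe (transcript ENSMUST00000139373.1) that was well above background on 2 LPS arrays and 0 saline arrays. In a fit over all probes 11 of the 19 were called, 7 higher and 4 lower, against 47.5% of all probes, 25.7% higher and 21.8% lower. The 7 include a dim Ikbke probe that was well above background on 4 LPS arrays and 0 saline arrays. That probe passed the filter only through the LPS arrays, so its call is no support for a change. The second Nfkb2 probe (mm9 chr19:46386146-46386285) rose by 0.60 ± 0.09 (limma adjusted p = 0.00175). The second Rel probe (mm9 chr11:23641729-23641788) fell by 0.36 ± 0.08 and the second Nfkbiz probe (mm9 chr16:55817859-55817918) by 0.31 ± 0.09. For these genes both probes were called in the same direction.

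The probes of Relb and of Ikbke gave values that lay further apart. A Relb probe on transcript ENSMUST00000148040.7 (mm9 chr7:20203058-20203117) was dim and gave -0.01 ± 0.07 (limma adjusted p = 0.915), whereas the other Relb probes gave 0.61 ± 0.10 and 0.54 ± 0.13. The Ikbke probe on the predicted transcript XM_006529764 (mm9 chr1:133163076-133163135) was well above background on 4 LPS arrays and 0 saline arrays, so its change is a bound, at least 1.89-fold higher in LPS, against the fold of 9.78 at the brighter probe (mm9 chr1:133151809-133151868). For the bound, each saline array was given its dimmest detected signal, or the value of the probe itself where that was higher. Differences between probes of a gene were tested in 10 pairs with an exact two-sided permutation test of the arrays, leaving out the Ikbke pair because 1 of its changes is a bound. The Relb differences of 0.62 and 0.55 reached the smallest p that 4 against 4 arrays allow (0.0286), which adjusted over the 10 pairs was 0.143. No pair passed, but a pair at that smallest p could pass only if most of the 10 reached it. The test therefore cannot decide whether the Relb probes differ. For Nfkb1 the 3 probes gave 0.06 ± 0.07, -0.22 ± 0.13 and 0.14 ± 0.11, none of them called.

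**Figure D3:**
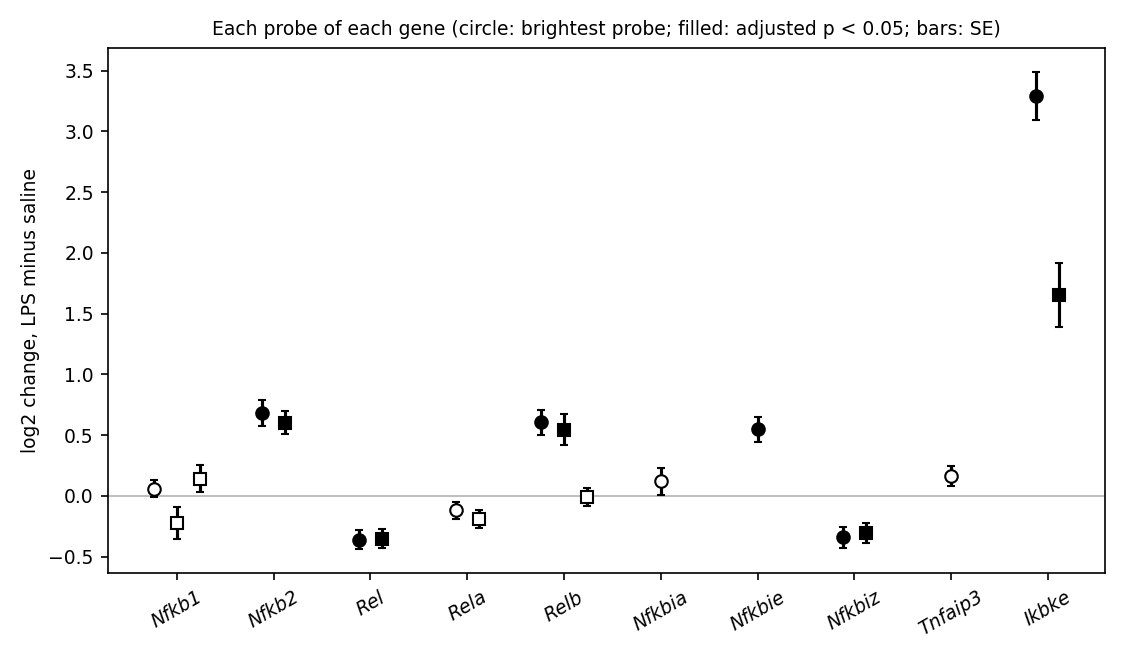
The vertical axis gives the log2 change, LPS minus saline, of each kept probe with its standard error (4 arrays per group), grouped by gene along the horizontal axis; circles are the brightest probe of a gene, squares its other probes, and filled symbols have a limma adjusted p under 0.05 over all probes. The probes of Nfkb2, of Rel and of Nfkbiz lie close together, while 1 Relb probe lies at -0.01 and the second Ikbke probe lies at 1.65, well above background on no saline array.

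The genes around the family were read from 7 lists. In the list of the IKK complex, upstream kinases and adaptors, 5 of 21 measured genes were higher and 2 lower in LPS, with a median of 0.12. Over all genes 27.8% were higher and 21.5% lower, with a median of 0.02. The core kinase subunits did not pass the test: Chuk was 0.15 ± 0.06, Ikbkb 0.16 ± 0.07 and Ikbkg 0.21 ± 0.09. Traf1, an adaptor of TNF receptors, rose by 1.33 ± 0.17 and Myd88, the adaptor of Toll-like receptors, by 0.87 ± 0.13 (limma adjusted p = 0.00160). Card9, an adaptor of C-type lectin receptors, rose by 0.86 ± 0.25. Traf6, the ubiquitin ligase downstream of Myd88, fell by 0.32 ± 0.11 and the paracaspase gene Malt1 by 0.27 ± 0.07. Card9 was no longer called without LPS replicate 1, 2 or 4 (0.81 to 0.86) or with each array's median signal as a covariate (0.33). Traf6 was no longer called without LPS replicate 1, 3 or 4 or saline replicate 2, 3 or 4 (-0.31 to -0.26), nor, like Malt1 (-0.06), under median scaling (-0.10). The Traf6 call was also lost with array weights (-0.23) and with the median signal as a covariate (-0.24). So it was with slide row as a block and with no filter on dim probes (-0.32 in each). Without LPS replicate 3 the list had 9 genes higher and 1 lower, where 7325 (32.5%) of all 22509 genes were higher and 5937 lower.

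In the list of the Tbk1 and IKK-epsilon branch 3 of 11 measured genes were higher and 1 was lower, against 27.8% higher and 21.5% lower over all genes, with a median of 0.14. Irf7, the interferon regulatory factor that this branch phosphorylates, rose by 3.60 ± 0.18 (limma adjusted p = 6.59e-05). It was 6.48, 6.68, 6.10 and 6.70 on the LPS arrays, against 2.75, 3.26, 2.63 and 2.92 on the saline arrays. Sting1, the adaptor of cytosolic DNA sensing, rose by 0.65 ± 0.10 and Tank, a scaffold of the kinases, by 0.35 ± 0.08. Tbkbp1, another scaffold, fell by 0.28 ± 0.07, though not past the threshold under median scaling (-0.07). Tbk1, the close relative of Ikbke, was -0.08 ± 0.08 (limma adjusted p = 0.394). Without LPS replicate 3 the list had 5 genes higher and 1 lower, beside 7325 (32.5%) of all 22509 genes higher and 5937 lower.

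Of the 4 other IkB family genes 2 were higher and 0 lower, where all genes gave 27.8% and 21.5%, with a median of 0.19. Bcl3, a nuclear IkB protein that binds dimers of the Nfkb1 and Nfkb2 products, was 4.41, 4.23, 3.88 and 4.30 on the LPS arrays, against 2.68, 2.73, 2.61 and 2.72 on the saline arrays. Bcl3 rose by 1.52 ± 0.12 (limma adjusted p = 0.000184), and the groups did not overlap. Nfkbib, the gene of IkB-beta, rose by 0.26 ± 0.08 (limma adjusted p = 0.0206). That call was lost without LPS replicate 1, 2 or 4 or saline replicate 4 (0.23 to 0.27) and with quantile normalization (0.00). It was also lost with the 75th percentile over probes detected on every array (0.11) and with the median signal as a covariate (0.175).

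In the list of negative regulators other than IkB 5 of 18 measured genes were higher and 1 was lower, beside 27.8% and 21.5% of all genes, with a median of 0.13. Irak3, the inactive kinase that blocks the Irak complexes below Toll-like receptors, rose by 2.11 ± 0.18. Tnip3, a partner of the Tnfaip3 product, rose by 1.001 ± 0.22, and N4bp1 by 0.74 ± 0.12. Normexp background with an offset of 50 put Irak3 at 1.51 and Tnip3 at 0.33, and with the median signal as a covariate Tnip3 was 0.68 and not past the threshold. Rnf11 fell by 0.21 ± 0.07 (limma adjusted p = 0.0399), but was 0.00 under median scaling. It was not past the threshold without LPS replicate 1, 2 or 4 or saline replicate 1, 2 or 4 (-0.22 to -0.18). Nor was it with slide row as a block or with no filter on dim probes (-0.21 in each). Cyld, a deubiquitinase that opposes IKK activation, was -0.09 ± 0.08. Without LPS replicate 3 the list had 8 genes higher and 1 lower, while 7325 (32.5%) of all 22509 genes were higher and 5937 lower.

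The list of IkB degradation and linear ubiquitin machinery had 9 of 13 measured genes higher and 1 lower, while 27.8% of all genes were higher and 21.5% lower, with a median of 0.38. Rnf31 and Sharpin, subunits of the linear ubiquitin ligase that modifies Ikbkg, rose by 0.69 ± 0.10 and 0.50 ± 0.10. Rbx1, the RING subunit of the cullin ligases, rose by 0.68 ± 0.13. Btrc, the F-box protein that recognises phosphorylated IkB, fell by 0.59 ± 0.10 (limma adjusted p = 0.00271). With quantile normalization 5 were higher and 2 lower, beside 5682 (25.2%) of all 22509 genes higher and 5598 lower.

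Of 37 measured known NF-kB target genes 18 were higher and 4 lower in LPS, with a median of 0.21, and of all genes 27.8% were higher and 21.5% lower. Saa3, a serum amyloid A gene, was 9.39 to 9.86 on the LPS arrays, against -3.03 to -2.00 on the saline arrays, a change of 12.27 ± 0.23. Ccl5, a chemokine gene, changed by 6.31 ± 0.17 and Lcn2, the gene of an iron-withholding protein, by 4.86 ± 0.28, both higher in LPS. Il6, the cytokine gene, fell by 0.77 ± 0.16, the protease gene Plau by 0.54 ± 0.09 and the early response gene Ier3 by 0.48 ± 0.10. Plau (-0.33) and Ier3 (-0.27) were not past the threshold under median scaling, and with normexp background and an offset of 50 Saa3 was 10.635.

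Of 5 measured genes known to depend on IkB-zeta in mouse macrophages, 3 were higher and 1 lower, set against 27.8% and 21.5% of all genes, while Nfkbiz itself was lower. Lcn2 and Il12b (0.93 ± 0.13) were higher and Il6 was lower. Csf3, the granulocyte growth factor gene, was well above background on 4 LPS arrays and 0 saline arrays. It is among the 3 higher genes but passed the filter only through the LPS arrays, so no p-value is given for it. Its change is a bound, at least 3.23-fold higher in LPS. With normexp background and an offset of 50, which shrinks the change of dim probes, Csf3 was 0.42 and Il12b 0.24, the latter called.

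Small medians of these lists depended on the scaling. Scaled to the 75th percentile over probes detected on every array, the medians were -0.04 for the IKK list, -0.01 for the Tbk1 list and -0.03 for the negative regulators. The median of all genes was then -0.13, against 0.02 as first reported. That scaling subtracts a single value per array, so relative to all genes the list medians stayed where they were, by arithmetic. The IKK list then had 4 genes higher and 8 lower, beside 4850 of all 22509 genes higher and 7243 lower. Quantile normalization gave -0.08 for the IKK list, -0.08 for the Tbk1 list and -0.05 for the other IkB genes, with all genes at -0.001. Each of these lists was above 0 as first reported.

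**Figure D4:**
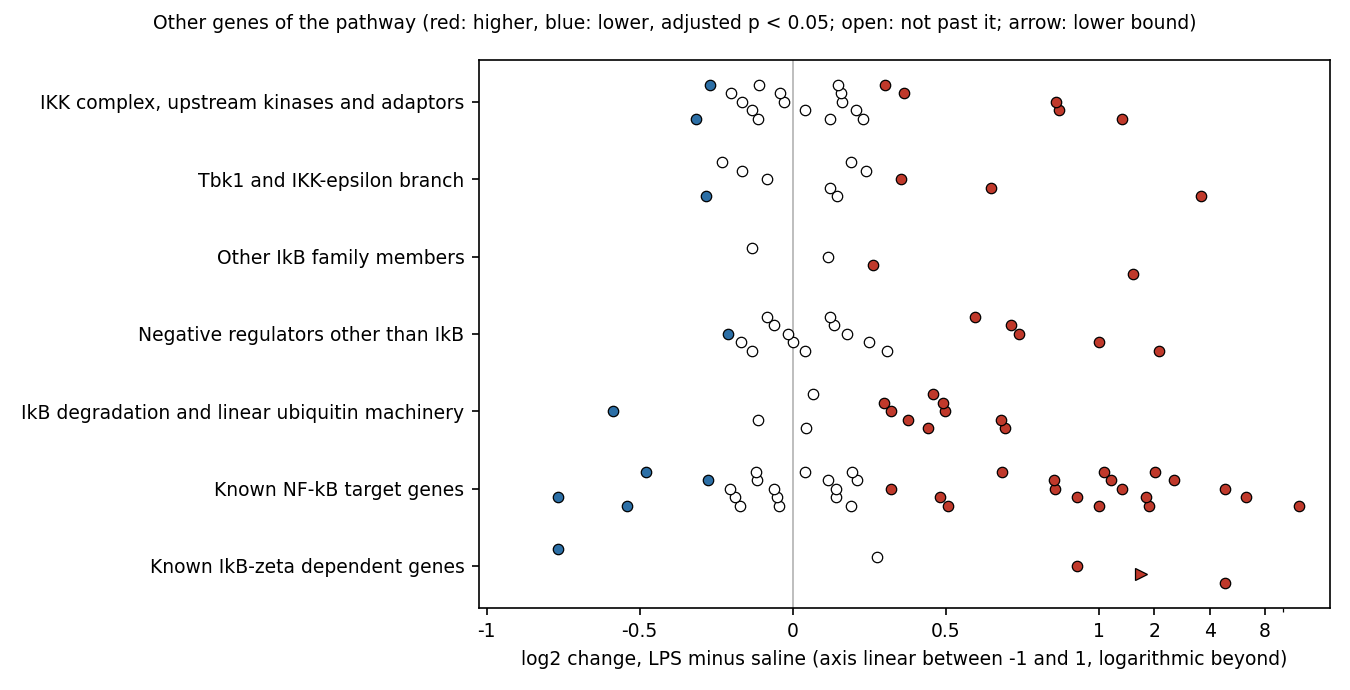
Each point is 1 measured gene of a list, placed by its log2 change, LPS minus saline, on an axis that is linear between -1 and 1 and logarithmic beyond. Red points were higher and blue points lower in LPS with a limma adjusted p under 0.05, open points did not pass, and the arrow marks the lower bound of Csf3. Most genes of the first list lie near 0, and 9 of 13 genes of the degradation list lie to the right as red points.

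The genes whose log2 values followed Ikbke most closely over the 8 arrays were B430306N03Rik (Pearson r = 0.9996), Pilrb2 (0.9989) and the Fc receptor gene Fcgr4 (0.9981). For Nfkb2 they were Aaas (0.9989), Myd88 (0.9976) and the transcript ENSMUST00000220638.1 (0.9975), and for Relb they were Stk11 (0.9986), Nup54 (0.9984) and Orc1 (0.9978). These correlations run over 8 arrays in 2 groups, so a shared difference between the groups contributes to each of them.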

How the data were processed

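RNA of 8 tubes of CD11b(+) brain cells was hybridised to 1-colour Agilent arrays, with 50 ng of total RNA labelled per tube, per the labels' protocols. The deposited scanner files hold intensity values made with Agilent Feature Extraction 12.0.3.1, per the file headers and the submitters' processing notes, with background subtraction and spatial detrending. A value table deposited by the authors holds log2 values. Over the probes its columns correlated at 0.9992 or more with the scanner values after each probe's median had been taken off, and the column medians were -0.07 to 0.08. The steps behind it were not given in the sources used here, and it served as an alternative.

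Control and outlier spots were left out and spots of a probe averaged. Values are log2 processed signals from which the 75th percentile of the array was subtracted. A probe had to be well above background on 4 or more arrays (35494 passed), and a gene took the value of its brightest such probe. Groups were compared with limma 3.58.1 (lmFit and eBayes, R 4.3.3), with p-values adjusted by Benjamini-Hochberg over 22509 genes and a threshold of 0.05. The small number of arrays limits the precision. Of 56605 probes 35405 were named by accession, 9124 by symbol and 25 by synonym in a RefSeq table, and 12051 kept the file's name. The code was tested on simulated data. Figures were drawn with matplotlib 3.10.9.

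The 10 genes and the lists were chosen with earlier results of these data known. Named besides the 10 genes were up to 3 risen and 3 fallen genes of each list by size of change, for the 3 genes with the largest change the 3 genes most correlated with each, and a few list members that did not pass (Chuk, Ikbkb, Ikbkg, Tbk1 and Cyld), added after their values were seen. The test between probes of a gene was also chosen after seeing the data. Probe positions are those of mm9, per the file headers, and promoter positions those of GRCm38.p6. Alternatives covered scaling, background, filter, probe choice, variance model, array weights, slide position, median signal as a covariate and leaving out each array. An exact permutation test of each gene, with unadjusted p, was a further alternative. The labels do not say more of the tubes than that each held 2 brains.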

Additional observations from a re-analysis of the deposited data

Results flagged for a closer look

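The Nfkb2 value of LPS replicate 3 was 3.05, while the other LPS arrays lay between 3.41 and 3.47. It was marked because its gap to the nearest array was 0.857 of the range of the group, above Dixon's 95% critical value for 4 samples. In all 20 groups (10 genes in 2 treatments) were examined, and chance marks about 1 in 20. On the scaled values LPS replicate 3 was the lowest LPS array for 9 of the 10 genes, called or not, and only Nfkb2 passed that critical value.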

How the results depend on the processing

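Each gene was examined under 23 alternatives, 1 of them an exact permutation test with unadjusted p. Nfkb2 (0.48 to 0.90), Relb (0.38 to 0.82), Nfkbie (0.39 to 0.76) and Ikbke (1.505 to 3.505) kept their direction in all 23 and their call in every refit. Their unadjusted permutation p was 0.0286, the smallest that 4 against 4 arrays allow. Every gene whose groups did not overlap (44.7% of all genes) has that p. It was not adjusted over all genes and is not counted as a call. With the 75th percentile taken only over probes detected on every array, Nfkb1 was -0.10, Nfkbia -0.037 and Rela -0.28, the last past the threshold. There 12 of 21 genes of the IKK list and 7 of 11 of the Tbk1 list were called, beside 12093 of all 22509 genes. Of all called genes 40.1% were higher. With quantile normalization Nfkb1 was -0.21, Nfkbia -0.18, Tnfaip3 -0.20 and Rela -0.48, all past the threshold. Lower were 6 of the 10 genes and 5598 of all 22509 genes, and 13 of 21 IKK genes were called, beside 11280 of all genes. With arrays scaled to their medians, Rel (-0.15) and Nfkbiz (-0.13) were no longer called, Rela was 0.094, Rnf11 0.002, 0 of the 10 genes and 2619 of all genes were lower, and 72.8% of called genes were higher against 56.4% as reported. The 3 scalings put the median of all genes at -0.13, -0.001 and 0.24. With each array's median signal as a covariate Nfkb1 was -0.023, Nfkbia -0.10 and Rela -0.22, the last called. By that setting 7475 of all 22509 genes were called, 4132 of them higher, and 1 of 4 other IkB genes was called. The mean of its probes put Nfkb1 at -0.01, Relb at 0.38 and Ikbke at 2.47. Rela was -0.14 and called with normexp background and an offset of 50. With array weights Tnfaip3 was 0.15 and called. So were 11 of 21 IKK genes, 7 of 11 of the Tbk1 list and 10 of 18 negative regulators, beside 14974 of all 22509 genes. Leaving out each array in turn left the calls of all 10 genes as they were, with Nfkb2 at 0.64 to 0.78 and Ikbke at 3.16 to 3.47. It gave 1 to 2 of the 4 other IkB genes called, beside 8730 to 13262 of all 22509 genes. The cause of these differences was not tested. Signal over background limits the dim Ikbke and Relb probes. The labels carry no replicate numbers to pair the tubes. With slide column as a block, each column holding 1 array of each group, none of the 10 calls changed and 13620 of all genes were called, against 11104 without it.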
